A study of Homo sapiens with 6 samples.

Results

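The Krüppel-like factors (KLFs) examined here were the 10 genes KLF2, KLF3, KLF4, KLF5, KLF6, KLF9, KLF10, KLF11, KLF12 and KLF13. They were found as the probes of the deposited intensity table whose gene symbol in the platform annotation is 1 of these names, which gave 14 of 48107 probes and 9 of the 10 genes. KLF11 had no probe under its name in the annotation used and was not analysed here. The samples came from A375, an established human melanoma line. The control group was A375 given the solvent DMSO for 24 h (n = 3 samples), and the treated group was A375 given 3 µM vemurafenib, an inhibitor of RAF kinases, also for 24 h (n = 3 samples). Both groups are 1 cell line, so they model 1 melanoma. Within each group the samples are labelled as unnumbered, 1 and 2, and nothing in the labels says that they were separate cultures, so a p-value covers no more than sample-to-sample spread, part or all of which could be technical.

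KLFs are DNA-binding proteins with C-terminal zinc fingers that recognise GC-rich and CACCC sequences in promoters and enhancers. KLF2, KLF4, KLF5 and KLF6 mostly activate transcription, often with acetyltransferases as partners. KLF3 and KLF12 recruit the corepressor CtBP, while KLF9, KLF10, KLF11 and KLF13 recruit the SIN3 corepressor. Several are fast-response genes whose RNA is short-lived and follows growth factor, serum, shear stress or hormone signals. The comparison asks which of them differ after a day of RAF inhibition.

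After vemurafenib, KLF2 fell 3.18-fold and KLF6 fell 2.00-fold, and KLF13 rose 2.24-fold. The other 6 measured genes did not pass the test. The count of 1 higher and 2 lower among 9 measured genes (11.1% and 22.2%) is read against all 11220 genes tested, of which 8.07% were higher and 7.93% lower at a limma adjusted p under 0.05. For 2 KLF genes every treated sample was above every control and for 3 every one was below, which is 5 of 9 (55.6%) against 39.9% of all genes (21.8% above and 18.0% below). An unadjusted p under 0.05 was found for 5 of the 9 and for 35.3% of all genes. With 9 genes these shares are a description, and nothing is read from them about the family. The median log2 change was -0.14 over the 9 KLF genes and 0.05 over all genes.

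The promoters of the 3 genes that passed the test are shown because they are the stretches of DNA through which these transcripts are started. Each window runs from 250 bases before to 50 bases after the annotated gene start and is RefSeq sequence of GRCh38.p14, printed 5′ to 3′ on the gene's own strand. The windows are chr19:16324576-16324875 on the plus strand for KLF2, chr10:3785160-3785459 on the minus strand for KLF6 and chr15:31326585-31326884 on the plus strand for KLF13. Capitals mark matches on either strand to a MEF2 site, TATAA, the CCAAT box (CCAAT), the E-box (CACGTG) and the CACCC box (CACCC).
KLF2: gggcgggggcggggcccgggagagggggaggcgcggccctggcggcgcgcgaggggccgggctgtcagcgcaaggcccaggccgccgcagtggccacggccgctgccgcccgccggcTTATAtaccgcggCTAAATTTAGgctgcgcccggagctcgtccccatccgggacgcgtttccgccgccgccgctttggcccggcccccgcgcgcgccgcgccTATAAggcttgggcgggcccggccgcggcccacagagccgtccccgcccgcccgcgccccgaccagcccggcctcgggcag
KLF6: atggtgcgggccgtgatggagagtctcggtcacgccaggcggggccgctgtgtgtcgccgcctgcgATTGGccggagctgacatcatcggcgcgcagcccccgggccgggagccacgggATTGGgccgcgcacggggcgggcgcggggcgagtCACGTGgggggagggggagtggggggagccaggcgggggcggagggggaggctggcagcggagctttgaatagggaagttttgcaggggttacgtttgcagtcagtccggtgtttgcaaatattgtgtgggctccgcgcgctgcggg
KLF13: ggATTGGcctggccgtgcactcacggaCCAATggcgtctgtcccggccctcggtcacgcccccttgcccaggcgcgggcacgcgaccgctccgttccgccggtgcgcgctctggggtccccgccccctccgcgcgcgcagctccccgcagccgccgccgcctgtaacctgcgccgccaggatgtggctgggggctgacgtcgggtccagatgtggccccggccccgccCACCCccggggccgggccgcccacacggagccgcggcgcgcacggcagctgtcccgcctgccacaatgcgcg

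The KLF2 window held a match to the MEF2 site, the binding sequence of the MEF2 factors through which the kinase ERK5 is known to act on KLF2. Its first base lay at -120 from the gene start, and 2.99% of 35116 windows of this length in the table hold such a match. The same window held TATAA matches beginning at -133 and -31, and 20.4% of all windows hold this motif. KLF6 had CCAAT matches at -184 and -131 and an E-box at -97, and KLF13 had CCAAT matches at -248 and -223 and a CACCC box at -22. CCAAT stands in 34.6%, the E-box in 7.26% and CACCC in 59.9% of all windows. The GC box (GGGCGG), which was left in lower case, matched at 6 places in KLF2, 2 in KLF6 and 3 in KLF13, and 45.0% of windows hold it. The AP-1 site (TGANTCA), the ETS site (CCGGAA), the CRE core (TGACGTCA) and the serum response CArG box were searched too and had no match in these 3 windows. They are found in 7.71%, 17.2%, 1.85% and 1.29% of all windows. A match is a run of letters, and binding was not measured.

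KLF2, an activator best known for keeping endothelium and resting T cells quiescent, was the KLF gene with the deepest fall. Its deposited intensity was 762, 792 and 1080 in DMSO unnumbered, 1 and 2, and 290, 281 and 434 in vemurafenib unnumbered, 1 and 2. Normalised and on the log2 scale, these were 9.49, 9.58 and 9.82 with DMSO and 7.56, 7.76 and 8.56 with the drug. All treated values lay below all controls, and vemurafenib 2 was the highest of the treated samples. The means were 9.63 ± 0.17 and 7.96 ± 0.53 (SD, n = 3 per group). The log2 change was -1.67 ± 0.27 (SE, limma adjusted p = 0.0114), which ranked 176 among the falls of 11220 genes. Between samples with the same label the change was -1.93 (unnumbered), -1.82 (1) and -1.26 (2). Leaving out vemurafenib unnumbered or vemurafenib 1 took the adjusted p to 0.0518 and 0.0527.

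KLF6, a ubiquitous activator induced by serum and injury, fell as well. Its normalised log2 intensities were 9.66, 9.62 and 9.03 in DMSO unnumbered, 1 and 2 and 8.31, 8.44 and 8.58 in the drug samples in the same order. The groups did not overlap, but the samples numbered 2 lay close together, DMSO 2 being the lowest control and vemurafenib 2 the highest treated sample. The means were 9.44 ± 0.35 and 8.44 ± 0.14 (SD, n = 3 per group), and the log2 change was -0.998 ± 0.21 (SE, limma adjusted p = 0.0238). Within the pairs the log2 difference was -1.35, -1.18 and -0.45 for unnumbered, 1 and 2. The call ended when DMSO unnumbered, DMSO 1, vemurafenib unnumbered or vemurafenib 1 was left out (adjusted p = 0.0821, 0.0746, 0.0987 and 0.0866), and with no filter on dim probes (0.0520).

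KLF4, an activator of epithelial differentiation and 1 of the classic reprogramming factors, was measured by 2 probes. On the brighter probe the log2 intensities were 6.59, 5.63 and 6.35 with DMSO and 5.06, 5.11 and 5.60 with vemurafenib. DMSO 1 and vemurafenib 2 were only just apart, although the groups did not overlap. The log2 change of -0.93 ± 0.28 (SE) missed the threshold (limma adjusted p = 0.0624), with a 95% interval of -1.58 to -0.28. It passed when the sample number was used as a block (adjusted p = 0.0243), without DMSO 1 (0.0407) and without vemurafenib 2 (0.0366). The second probe gave -0.57 ± 0.22 (SE, adjusted p = 0.122, 0.0395 with the block), and its groups overlapped. Both probes lay near background, and with no background correction the change of the brighter probe was -0.41.

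KLF5, an activator of proliferating epithelium and smooth muscle, had intensities of 6.47, 5.92 and 6.83 with DMSO and 6.21, 5.76 and 7.21 with vemurafenib on the log2 scale. The sample numbered 2 was the highest in both groups and sample 1 the lowest, and the groups overlapped. The log2 difference was -0.01 ± 0.38 (SE, limma adjusted p = 0.989), with a 95% interval from -0.90 to 0.88. With the sample number as a block its SE was 0.18 and the limma adjusted p 0.971. Of the 4 activators, 2 fell, 0 rose and 2 did not pass, beside 7.93% of all genes lower and 8.07% higher, and 4 genes are too few to read a class from.

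**Figure D1:**
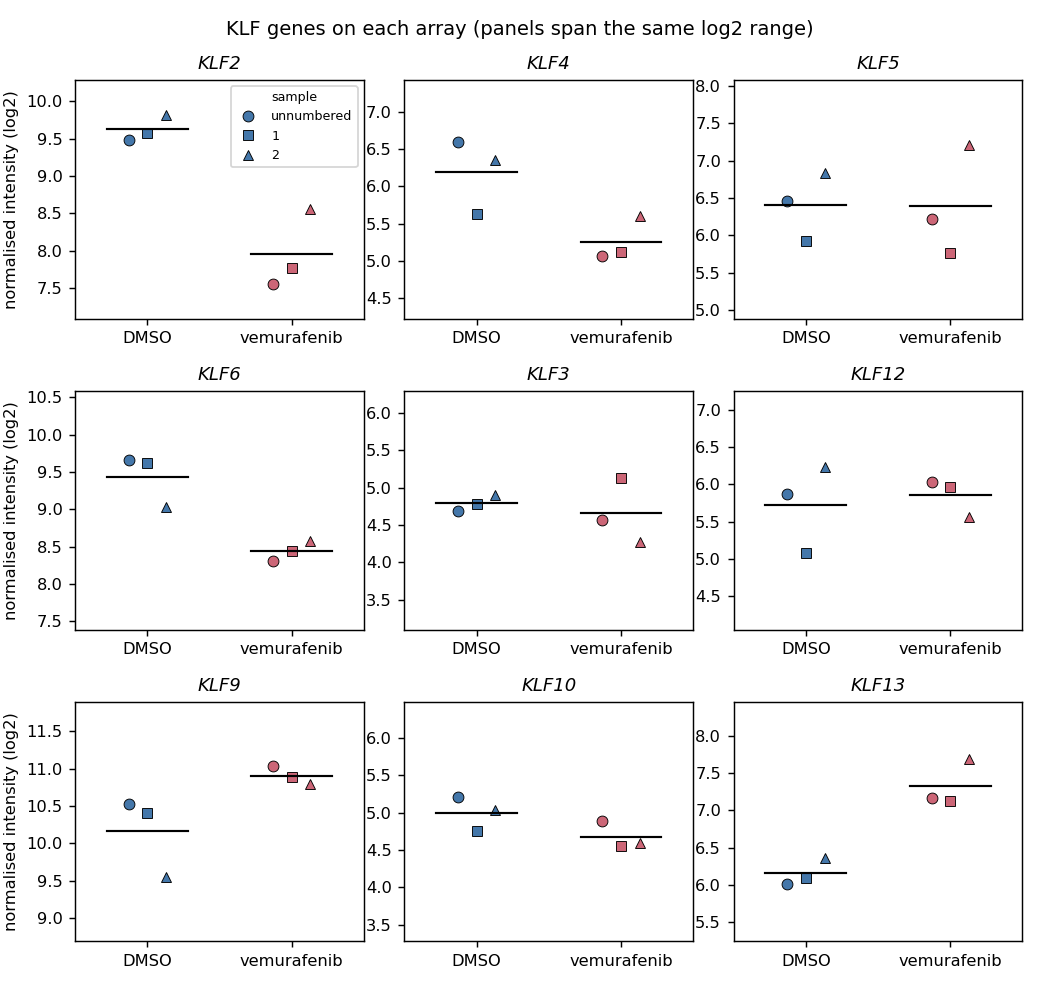
Normalised log2 intensity of 9 KLF genes on each of 6 arrays, 1 panel per gene and each panel spanning the same range on the log2 axis. Points are samples with DMSO (blue) or vemurafenib (red), with the shape giving the sample label and the line the group mean. KLF2, KLF4 and KLF6 lie lower and KLF9 and KLF13 higher in all 3 treated samples, and the other 4 genes overlap.

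The CtBP-binding repressors did not pass the test. KLF12, which was first described as a repressor of the AP-2 alpha gene, had log2 intensities of 5.87, 5.07 and 6.23 in DMSO unnumbered, 1 and 2 and 6.03, 5.96 and 5.56 with vemurafenib. The log2 difference was 0.12 ± 0.30 (SE, limma adjusted p = 0.813, 95% interval -0.57 to 0.82). A second KLF12 probe was detected on 0 of 6 arrays. KLF3, a repressor in blood and fat cells, was detected on 3 of 3 control arrays and on 0 of 3 treated arrays. Its deposited intensity was 96.7, 96.5 and 102 in DMSO unnumbered, 1 and 2 and 93.8, 105 and 83.7 in the vemurafenib samples. As vemurafenib 1 was above every control, the detection calls do not show a loss of KLF3. The log2 intensities of KLF3 were 4.69, 4.79 and 4.90 with DMSO and 4.57, 5.13 and 4.27 with vemurafenib, so the groups overlapped. The fitted log2 difference was -0.14 (limma adjusted p = 0.727, 95% interval -0.68 to 0.40), so neither a fall nor a rise was shown.

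KLF13, a SIN3-binding factor known for its part in T cell chemokine expression, rose. The deposited intensities were 133, 133 and 152 in the controls and 240, 207 and 269 in the treated samples. The normalised log2 values were 6.02, 6.09 and 6.36 with DMSO and 7.16, 7.13 and 7.68 with vemurafenib, and the sample numbered 2 was the highest of both groups. The means of 6.16 ± 0.18 and 7.32 ± 0.31 (SD, n = 3 per group) differed by 1.17 ± 0.21 (SE, limma adjusted p = 0.0146), rank 442 among the rises of 11220 genes. The 3 pairs gave log2 differences of 1.14, 1.03 and 1.32, a narrower range than that of KLF2 or KLF6. Leaving out DMSO unnumbered, DMSO 1 or vemurafenib unnumbered ended the call (adjusted p = 0.0590, 0.0522 and 0.0530). The size depends on the background step, since the probe is dim: the log2 change was 0.70 with no background correction and 0.71 in the deposited log2 values, both past the threshold.

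KLF9, a SIN3-binding factor induced by glucocorticoid and thyroid hormone, was higher in all 3 treated samples without passing the test. Its log2 intensities were 10.53, 10.41 and 9.55 in DMSO unnumbered, 1 and 2 and 11.03, 10.89 and 10.80 with vemurafenib. The difference of DMSO 2 from the mean of the other controls was -0.92. The log2 difference was 0.74 ± 0.27 (SE, limma adjusted p = 0.1003, 95% interval 0.13 to 1.36) and became 0.44 without DMSO 2 (adjusted p = 0.143). With the sample number as a block the adjusted p was 0.0346.

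KLF10, a factor induced early by TGF-beta, was represented by 3 probes, of which 1 was kept by the filter. On that probe the log2 intensities were 5.21, 4.75 and 5.03 with DMSO and 4.88, 4.55 and 4.59 with vemurafenib, with 2 of 3 arrays of each group detected. The groups overlapped and the fitted log2 difference was -0.32 ± 0.19 (SE, limma adjusted p = 0.275). Of the 3 measured SIN3-binding factors, 1 rose, 0 fell and 2 did not pass, beside 8.07% of all genes higher and 7.93% lower.

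**Figure D2:**
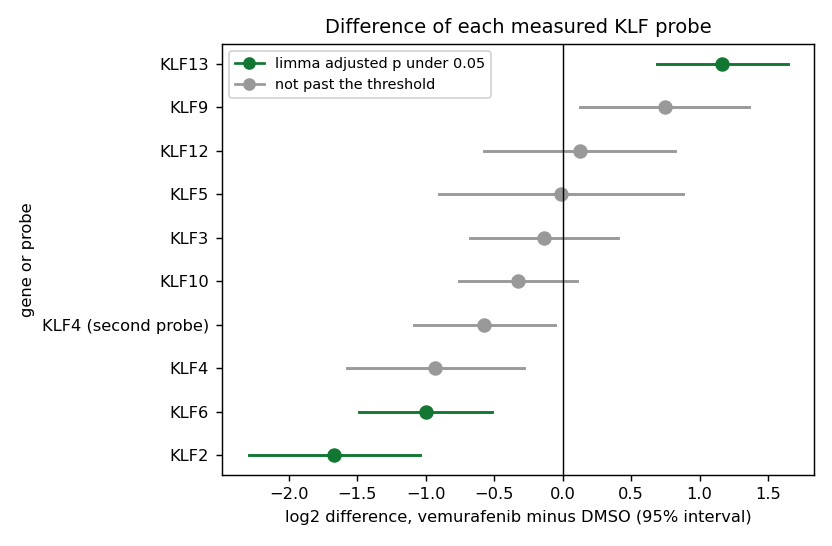
Log2 difference, vemurafenib minus DMSO, for the 10 KLF probes kept by the filter, with the 95% interval from limma as bars. Green marks a limma adjusted p under 0.05. KLF2 (-1.67) and KLF6 (-0.998) lie to the left and KLF13 (1.17) to the right, and the intervals of KLF3, KLF5, KLF10 and KLF12 span 0.

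Using the sample number as a block moved the counts to 2 higher (KLF9 and KLF13) and 3 lower (KLF2, KLF4 and KLF6) of 9. In that fit 16.1% of all genes were higher and 13.6% lower. The adjusted p-values of KLF2, KLF6 and KLF13 became 0.00255, 0.0160 and 0.00364. For KLF2, KLF4, KLF6, KLF9 and KLF13 an exact permutation of the samples (two-sided) returned p = 0.1, its lower limit with 3 samples against 3. The unnumbered and 1 samples lay closer to each other than to sample 2 (root mean square log2 difference 0.299 against 0.535 and 0.536 with DMSO, and 0.322 against 0.536 and 0.556 with vemurafenib). With those samples averaged, leaving 2 against 2, 0 KLF genes passed limma's test (adjusted p from 0.150 for KLF2 upwards), as against 26 of all genes.

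**Figure D3:**
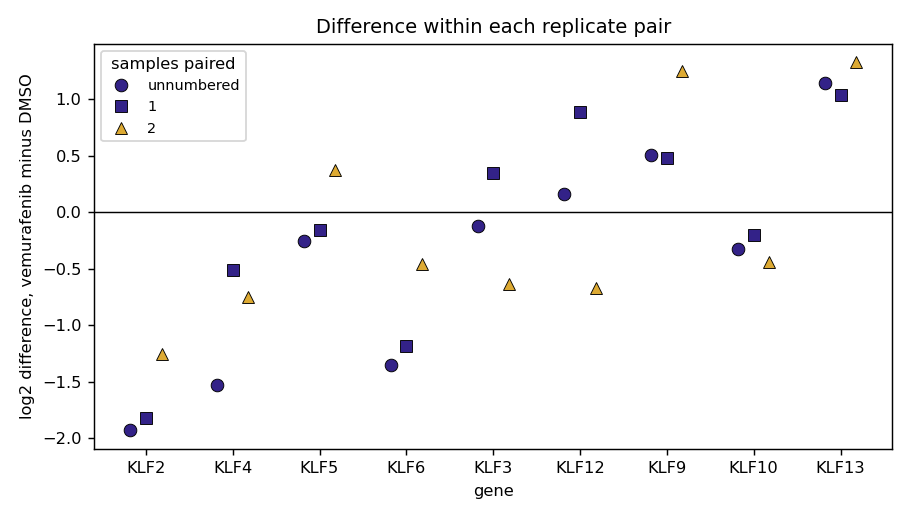
Log2 difference between the vemurafenib and the DMSO sample of the same label, for 9 KLF genes. The unnumbered pair (circles) and pair 1 (squares) are dark and pair 2 (triangles) is yellow. All 3 pairs are below 0 for KLF2, KLF4, KLF6 and KLF10 and above 0 for KLF9 and KLF13, while KLF3, KLF5 and KLF12 have pairs on both sides.

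The genes whose profiles over the 6 arrays were most like those of the 3 called factors were named by Pearson's r over 1 probe per gene. As the groups do not overlap for these factors, such an r mainly reflects the gap between treated and control arrays, and 623 genes exceeded 0.95 for KLF2, 141 for KLF6 and 168 for KLF13. The closest to KLF2 were IMP4, a ribosomal RNA processing factor (r = 0.999), the zinc finger gene ZFP42 (0.997) and the recombination factor RAD54L (0.997), each of which fell. The closest to KLF6 were CENPV, FAM216A and SH3GL3 (0.998, 0.997 and 0.996), which fell too. For KLF13 they were RASSF5, PTPN4 and TTLL5 (0.993, 0.993 and 0.992), of which PTPN4 rose (log2 change 0.63, limma adjusted p = 0.0456). RASSF5 passed only with the block (limma adjusted p = 0.0597, and 0.0415 with it), and TTLL5 did not pass.

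Counts for relatives and partners of the KLFs, here and in the next paragraph, stand beside 8.07% of all genes higher and 7.93% lower. With the block these shares were 16.1% and 13.6%. The lists are short, and nothing is read from their counts about KLF partners. Of 17 other genes of the KLF and SP family, 6 were measured (KLF15, SP1, SP2, SP3, SP4 and SP8), and SP4, a GC-box activator, fell by 0.92 ± 0.18 on the log2 scale (SE, limma adjusted p = 0.0185) while 5 did not pass (list median 0.07). Of the ERK5 and MEF2 arm upstream of KLF2 and KLF4, 0 of 5 measured genes passed. MEF2D, a DNA-binding MEF2 factor, had a log2 difference of -0.45 (adjusted p = 0.206) and MAP2K5, the kinase of ERK5, 0.32 (adjusted p = 0.349), and the list median was 0.10. Among CtBP corepressor genes 1 of 7 rose, ZEB2, a repressor that recruits CtBP (log2 change 1.17 ± 0.32 SE, adjusted p = 0.0492), and the list median was 0.13. Among SIN3 corepressor genes 0 of 8 passed and the median was -0.15; the deacetylases HDAC1 and HDAC2 had log2 differences of 0.13 and -0.47 (adjusted p = 0.607 and 0.0954). With the block SAP18 (log2 difference 0.81) and RBBP4 (-0.79), both subunits of SIN3 complexes, passed as well (limma adjusted p = 0.0372 and 0.0102, against 0.135 and 0.127 without it).

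KAT2B, an acetyltransferase, rose 3.21-fold (log2 change 1.68 ± 0.21 SE, limma adjusted p = 0.00501), and the other 3 acetyltransferases measured did not pass (list median 0.29). Of 10 ubiquitin ligases and deubiquitinases that act on KLF proteins, CDC20, the mitotic activator of the anaphase-promoting complex, fell 3.18-fold (adjusted p = 0.0277) and 9 did not pass (median 0.21). Of 8 TGF-beta and SMAD genes upstream of KLF10, TGFB3, a TGF-beta ligand, rose (limma adjusted p = 0.0114) and 7 did not pass (median -0.06). TGFB3 was detected on 2 of 3 control arrays and lay near background there, so its fitted log2 difference of 1.27 is not a measured size. SMAD3, a signal transducer of the pathway, had a log2 difference of -0.63 (limma adjusted p = 0.0781, and 0.0277 with the block).

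Genes that respond to glucocorticoid or FOXO along with KLF9 come next. This list was chosen with results of the data known, so its counts are a description. Nothing is read from them about KLF9. The test called 5 of 13 measured genes higher and 0 lower, beside 8.07% and 7.93% of all genes, and the median log2 change was 0.82 against 0.05 for all genes. With the block 7 were higher and 0 lower, beside 16.1% and 13.6%. TSC22D3, the glucocorticoid-induced leucine zipper, rose 3.46-fold and BCL6, a transcriptional repressor, 2.21-fold (limma adjusted p = 0.0129 and 0.0209), and SESN3, a stress-response sestrin, passed as well (adjusted p = 0.0111). SESN3 was detected on only 1 of 3 control arrays, so its fitted log2 difference of 1.68 is not a measured size. The receptor itself, NR3C1, had a log2 difference of 0.83 (limma adjusted p = 0.0679, and 0.0209 with the block). TXNIP, a redox regulator, had the list's largest log2 difference, 2.27, and also passed only with the block (0.124 without it and 0.00126 with it). SGK1 and SESN1 made up the other calls (log2 changes of 0.82 and 1.10). FKBP5 and DUSP1, also on the list, had differences below 0 and did not pass. Their log2 differences were -0.21 and -0.43 (limma adjusted p = 0.505 and 0.155).

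Reported KLF target genes moved in both directions or did not pass. Of 6 measured targets of KLF2 and KLF4, 0 passed (limma; 3 rose with the block). Their median log2 change was 0.37, and the abundant examples were CDKN1A, a cell cycle inhibitor (log2 difference 0.70, limma adjusted p = 0.0707), and ASS1, an arginine synthesis enzyme (0.58, adjusted p = 0.0537). The block took these p-values to 0.0441 and 0.0341, and that of CDKN1C, another cell cycle inhibitor, from 0.0815 to 0.00618. Of 12 measured targets of KLF5 and KLF6, 1 rose, 2 fell and 9 did not pass, with a median of -0.36. With the block 4 rose and 2 fell, TAGLN, COL1A1 and CDKN1A being added (limma adjusted p = 0.0123, 0.0274 and 0.0441). The shares of all genes were 8.07% higher and 7.93% lower, and 16.1% and 13.6% with the block. CCND1, cyclin D1, had a log2 change of -2.77 ± 0.27 and BIRC5, the mitotic survival protein survivin, one of -2.13 ± 0.53 (SE, limma adjusted p = 0.00208 and 0.0374). ATF3, a stress factor, rose by 1.16 ± 0.24 on the log2 scale (SE, limma adjusted p = 0.0233). CCND1 is also a gene driven by ERK. These lists were chosen with results of the data known, so they are no independent evidence about KLF activity.

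The arrays were alike in median intensity, and precision is limited by having 6 of them. Median intensities were 91.0 to 94.5 against an inferred background of 85.0 to 88.3. The share of probes detected was 38.7%, 38.6% and 38.2% in DMSO unnumbered, 1 and 2. It was 41.7%, 40.0% and 38.8% in the vemurafenib samples in the same order, so every treated array was above every control. Of 17 measured genes that ERK drives, 14 fell and 3 did not pass (median log2 change -2.44), beside 7.93% of all genes lower. Among those that fell were SPRY4, a feedback inhibitor (at least 14.2-fold lower), FOSL1 (14.0-fold) and ETV4 (limma adjusted p = 0.00123, 0.00189 and 5.51e-04). ETV4 was detected on 2 of 3 treated arrays and lay near background there, so its fitted 10.1-fold fall is not a measured size. FOSL1 was detected on 3 of 3 treated arrays but was dim there. Its deposited intensities were 124, 104 and 161 in vemurafenib unnumbered, 1 and 2, so its fitted 14.0-fold depends on the background step. The log2 differences of ACTB and GAPDH were -0.13 and -0.10 (adjusted p = 0.694 and 0.684). Of 7 melanocytic markers with a probe, MITF, SOX10 and S100A1 were detected on all 6 arrays, and TYR and S100B on 0. MITF was higher with the drug (log2 change 0.75, limma adjusted p = 0.0334), and SOX10 and S100A1 did not pass (0.390 and 0.658). The endothelial markers CDH5 and KDR, the leukocyte markers PTPRC and CD3E, and the keratinocyte markers KRT1, KRT5 and IVL were detected on 0 arrays. The keratin KRT10 was detected on all 6 arrays and KRT14 on 1 of 3 control and 3 of 3 treated arrays. CD14 was detected on 2 of 3 arrays of each group, LYZ on 3 of 3 control and 2 of 3 treated arrays, and the endothelial receptor TIE1 on 3 of 3 control and 0 of 3 treated arrays. The signal summed over 6 fibroblast markers was 137 to 153 with DMSO and 198 to 330 with vemurafenib, with THY1 detected on 0 arrays, and DCN was at least 1.93-fold higher with the drug (adjusted p = 0.0230). The fibroblast markers LUM and COL1A1 passed only with the block (limma adjusted p = 0.0693 and 0.0697 without it, 0.00867 and 0.0274 with it). The sum over 5 endothelial markers was 118 to 124 with DMSO and 108 to 119 with vemurafenib, over 4 leukocyte markers 113 to 126 and 87.6 to 129, over 5 keratinocyte markers 1069 to 1363 and 1297 to 1677, and over the 7 melanocytic markers 1134 to 1531 and 1265 to 2365, all in units of normalised intensity. Each sum included undetected probes, and every value contained the offset of 16. KRT10 alone made up most of the keratinocyte sum, and SOX10 most of the melanocytic sum. The endothelial and leukocyte sums, and the fibroblast sum with DMSO, were largely background and offset. The sums therefore do not compare the amounts of these cell types. All samples are labelled as the same cell line, A375, so these markers are read as transcripts and not as numbers of other cells. Whether the fibroblast markers and the KLF changes are linked was not tested. In these bulk samples, a change in every cell and a change in some of the cells cannot be told apart.

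**Figure D4:**
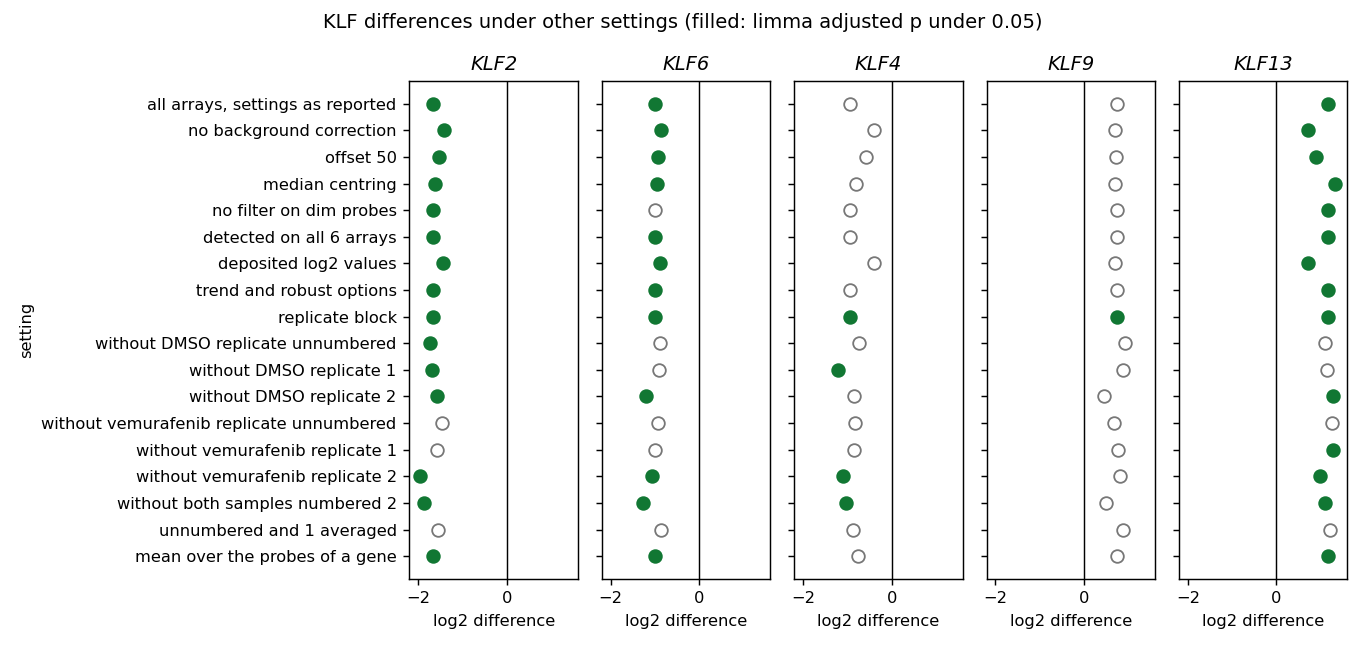
Log2 difference of 5 KLF genes (x axis) under each processing setting (y axis), with filled points at a limma adjusted p under 0.05. Each point of KLF2, KLF4 and KLF6 is below 0 and each point of KLF9 and KLF13 above 0, while the calls of KLF2, KLF6 and KLF13 end under 3, 6 and 4 of 17 alternatives.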

How the data were processed

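Per the labels' protocols, cRNA of 6 A375 samples carried biotin for Illumina arrays. The authors' deposited table holds linear intensities, with neither background subtraction nor normalization as the values show, and, per the file headers, each intensity has a detection p-value whose method no source used here gives. The deposited log2 values of the same arrays share 1 median (6.54) and were an alternative; the method behind them is not stated. Probes with a missing value (4) were left out. Intensities were corrected by normexp in limma 3.58.1 (R 4.3.3) with the background inferred from the detection p-values, with an offset of 16, followed by quantile normalization between arrays and log2. The filter kept probes detected (p under 0.01) on 3 or more arrays (18747 probes, 11220 genes, 10 of 14 KLF probes). A gene was represented by its brightest kept probe. For a probe detected on 0 arrays of 1 group, an "at least" fold change used a floor on those arrays. That floor was the higher of the lowest detected signal on the array and the probe's own signal. Probe names came from the platform annotation (30113 probes with 1 symbol, 8 with several, 17986 with none), and 30074 matched a current gene table.

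Groups were compared over all 6 samples with limma's lmFit and eBayes, vemurafenib minus DMSO, with Benjamini-Hochberg adjustment over all kept probes and a threshold of 0.05. The fit was tested on simulated data. Promoter sequences came from RefSeq (8 of 10 genes matched). The correlation of deviations from the group means between same-labelled samples was 0.189 (unnumbered), 0.350 (1) and 0.523 (2). Values for differently labelled samples were not set beside them, so they do not establish pairs. The labels do not say what a number marks. The fit with the sample number as a block is given where it changes the call of a named gene or list.

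The KLF genes, the gene lists and the alternatives were chosen with earlier results of these data known. Genes named were all KLF genes, the 3 genes most like each called one, and from each list up to 3 called genes with the largest change or, if none, up to 2 of the most abundant. NR3C1, SGK1, SESN1, TXNIP, FKBP5, DUSP1, SMAD3, SAP18, RBBP4, CDKN1C and TAGLN were named after their values were seen. So were the cell type markers and, among other KLF and SP genes, the measured members. Alternatives were other filters, median centring, an offset of 50, uncorrected background, the deposited log2 values, trend and robust options, the block, samples left out or averaged, and the mean over a gene's probes.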

Additional observations from a re-analysis of the deposited data

Results flagged for a closer look

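Of the 4 KLF probes that the filter left out, 2 were detected with vemurafenib and on 0 of 3 control arrays. The second KLF3 probe was detected on 2 of 3 treated arrays, with a mean log2 intensity of 4.69 ± 0.19 against 4.49 ± 0.16 with DMSO (SD, n = 3 per group). A KLF10 probe was detected on 1 of 3 treated arrays, with a mean of 4.67 ± 0.26 against 4.33 ± 0.13. For both probes the values of the groups overlapped, and no test was made.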

How the results depend on the processing

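Each KLF result was recomputed under 17 alternatives (16 for KLF3 and KLF10, which have no probe detected on all 6 arrays). Of 151 values, 120 kept their direction and their side of the threshold, and KLF2, KLF4, KLF6, KLF9, KLF10 and KLF13 kept their direction in each. KLF5, with a difference near 0, turned positive under median centring (0.15), an offset of 50 (0.0072), uncorrected background (0.013), the deposited log2 values (0.013) and the unnumbered and 1 samples averaged (0.086), and ranged from -0.42 to 0.30 without single samples. KLF3 was 0.11 without both samples numbered 2 and -0.38 to 0.056 without single samples. KLF12 was -0.074 with the averaging and -0.20 to 0.38 without single samples. These 3 genes passed under no alternative. The cause was not tested.

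The number of KLF genes higher was 1, and became 2 with the replicate block, 0 with the averaging and 0 to 1 without single samples. The number lower was 2, and became 1 without a filter, 0 with the averaging and 0 to 3 without single samples; it was 0 without vemurafenib unnumbered or vemurafenib 1. The number of all genes changed was 1796, and became 940 without a filter (more probes tested), 3339 with the replicate block, 3636 without both samples numbered 2, 26 with the averaging (fewer samples) and 304 to 2671 without single samples. The replicate block changed no KLF call other than KLF4 and KLF9. KLF4 also passed without both samples numbered 2 (adjusted p = 0.0417). Signal over background limits KLF3, KLF4, KLF5, KLF10 and KLF12, whose probes were dim, and the size of the change of KLF13, also dim. With 3 samples a group small differences were not detectable.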
